A study of Mus musculus with 12 samples.

Results

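Sorted mouse cells that had carried 4 forced heart transcription factors were compared, across all genes, with fibroblasts that had carried an empty vector. The comparison uses 6 of the 12 RNA sequencing libraries of the series, chosen by their labels and not by a measured value. The 3 libraries of group GHMT came from mouse embryonic fibroblasts of the C57BL/6 strain treated for 3 weeks with Gata4, Hand2, Mef2c and Tbx5, then sorted by the αMHC-GFP reporter, green fluorescent protein under the promoter of Myh6. The 3 libraries of group E came from embryonic fibroblasts of the same strain kept for 3 weeks with empty vector, for which the labels give no sort. The sort itself selects cells in which the Myh6 promoter is active, so forced factors and sort cannot be told apart in this comparison. The other 6 libraries (the same factors with Akt, and adult ventricular cardiomyocytes) were not compared here. They entered the choice of tested genes, the scaling, the correction for GC content and the shared estimate of the spread. No label says that the replicates of a group are separate cultures, so p-values measure the spread between these libraries, which may be technical. Tests are edgeR's quasi-likelihood tests, and p-values were adjusted over all tested genes by the Benjamini-Hochberg method. Only genes under an adjusted p of 0.05 are said to rise or fall. Levels are CPM, reads of a gene scaled to the size of the library with trimmed-mean factors, given for replicates 1, 2 and 3 of a group in that order. Differences are log2, GHMT minus E, with a standard error (SE). The SE was derived from the test, as the absolute difference over the square root of its F statistic.

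Gata4, Hand2, Mef2c and Tbx5 are transcription factors of the developing heart, and forcing them together into fibroblasts is a known way to turn on heart muscle genes without passing through a stem cell. A working heart muscle cell needs sarcomeres, in which thick filaments of myosin pull on thin filaments of actin. It also needs stores of calcium that open and refill at each beat, ion channels that set the rhythm, and junctions that bind it to its neighbours. Fibroblasts secrete and remodel collagen and other matrix, and embryonic ones divide in culture.

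Promoters are shown first, because the forced factors act on promoter and enhancer DNA. Unless stated, they were counted over whole gene lists, whether or not a member moved. Short motifs were sought on both strands in the 250 bases before the most upstream start that RefSeq gives each gene (GRCm38.p6), which 10712 of the 15059 tested genes matched. Motifs were searched one by one, so that matches may overlap. The motifs were AGATAA for GATA factors, AGGTGT for T-box factors, CATCTG for the E-box of Hand factors, and, given by name, the MEF2 motif and the CArG box of serum response factor. Promoters of sarcomere genes (thick filament, thin filament and Z-disc lists) numbered 60. Of these, 10 of 60 (16.7%) held a CArG box and 8 of 60 (13.3%) the MEF2 motif, against 1.19% and 2.82% of the tested genes. The GATA, T-box and E-box motifs stood in 13.3%, 11.7% and 16.7%, against 5.72%, 9.2% and 9.92% of the tested genes. Among sarcomere genes that rose, 5 of 33 promoters (15.2%) held a CArG box and 6 of 33 (18.2%) the MEF2 motif. The GATA, T-box and E-box motifs stood in 9.09%, 12.1% and 12.1% of these 33. Across the whole comparison, the promoters of genes higher and lower in GHMT were nearly alike: 6.03% and 4.97% held the GATA motif, 8.63% and 9.24% the T-box motif, and 2.46% and 2.58% the MEF2 motif. The E-box stood in 9.6% and 9.9%. The CArG box stood in fewer higher (1.02%) than lower (1.52%) promoters. No share was tested, and a match is a description, not a bound site. The 4 stretches below end at the start site and belong to sarcomere genes that rose, with the CArG box (Actc1, Ldb3, Myl7) or the MEF2 motif (Ttn) in capitals. They lie at chr2:114052876-114052965, minus strand (Actc1), chr14:34588682-34588771, minus strand (Ldb3), chr11:5898783-5898872, minus strand (Myl7) and chr2:76982548-76982727, minus strand (Ttn).
Actc1: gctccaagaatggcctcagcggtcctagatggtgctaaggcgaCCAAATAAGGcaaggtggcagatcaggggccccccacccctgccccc
Ldb3: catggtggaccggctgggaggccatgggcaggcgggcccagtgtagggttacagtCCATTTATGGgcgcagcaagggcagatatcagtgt
Myl7: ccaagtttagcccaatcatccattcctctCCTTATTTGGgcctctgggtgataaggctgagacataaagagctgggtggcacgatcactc
Ttn: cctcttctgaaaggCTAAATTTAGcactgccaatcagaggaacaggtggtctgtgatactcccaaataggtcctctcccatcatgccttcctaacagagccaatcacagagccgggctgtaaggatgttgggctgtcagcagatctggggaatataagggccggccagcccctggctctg

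A second set of promoters belongs to lists of cell division genes, most of which fell. In the mitosis list, 24 of 35 promoters (68.6%) held a CCAAT box and 11 of 35 (31.4%) the cell cycle homology region TTTGAA, against 36.4% and 10.7% of the tested genes. The E2F motif TTCCCGC stood in 8 of 33 promoters (24.2%) of the DNA replication list, against 6.97% of the tested genes. Capitals mark each of these motifs on either strand in the mitosis genes Top2a (chr11:99024190-99024299, minus strand), Cdk1 (chr10:69352913-69353022, minus strand) and Cdc20 (chr4:118437344-118437433, minus strand) and the replication gene Rrm1 (chr7:102441585-102441694, plus strand).
Top2a: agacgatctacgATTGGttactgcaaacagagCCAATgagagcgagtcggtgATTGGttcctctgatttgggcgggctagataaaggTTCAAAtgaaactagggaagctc
Cdk1: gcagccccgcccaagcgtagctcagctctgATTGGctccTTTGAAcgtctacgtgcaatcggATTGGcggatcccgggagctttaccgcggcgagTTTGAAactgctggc
Cdc20: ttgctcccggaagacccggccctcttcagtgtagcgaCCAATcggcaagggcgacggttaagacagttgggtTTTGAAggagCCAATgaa
Rrm1: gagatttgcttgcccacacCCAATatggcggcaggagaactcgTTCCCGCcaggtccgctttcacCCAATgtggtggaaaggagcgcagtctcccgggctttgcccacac

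A further set belongs to interferon-responsive genes, many of which rose. The interferon response element, given by name, stood in 20 of 43 promoters of that list (46.5%), against 2.59% of the tested genes. Capitals mark it in B2m (chr2:122147537-122147686, plus strand), Oas3 (chr5:120777660-120777759, minus strand) and Ddx60 (chr8:61927987-61928086, plus strand).
B2m: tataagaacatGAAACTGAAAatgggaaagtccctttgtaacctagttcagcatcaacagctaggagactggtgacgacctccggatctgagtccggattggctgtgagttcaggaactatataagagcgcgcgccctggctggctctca
Oas3: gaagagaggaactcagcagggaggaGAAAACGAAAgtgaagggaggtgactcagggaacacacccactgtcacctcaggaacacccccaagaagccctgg
Ddx60: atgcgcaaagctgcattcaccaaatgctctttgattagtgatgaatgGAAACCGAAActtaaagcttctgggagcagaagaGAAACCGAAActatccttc

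Of the 15059 tested genes, 2979 (19.8%) were higher and 4948 (32.9%) lower in GHMT, so that 52.6% passed in either direction; the groups did not overlap in 59.5%. The median difference of all tested genes was -1.06 on the log2 scale, and -0.34 when genes without a read in one group were set at their bound (3 reads pooled over the group's 3 libraries). Where the other group's mean did not exceed that level, the difference was set at 0, here and in all medians at bounds. No GHMT read was found for 1327 of the lower genes, and no E read for 27 of the higher ones. GHMT libraries held 1872558 to 2200815 gene reads and E libraries 15971154 to 33552138. Mitochondrially encoded genes took 27.8% to 72.2% of GHMT gene reads and 3.65% to 7.36% of E gene reads. The calls also followed base composition: 1811 genes rose and 762 fell in the tertile of tested genes with the lowest GC content, against 313 and 2387 in the highest tertile. With a correction for GC content, 4745 genes rose and 1837 fell, 2847 of the 2979 higher and 1695 of the 4948 lower calls were kept, and 53 turned direction. On total counts 1110 rose and 8111 fell. The part of depth, mitochondrial reads and GC content in single results was not tested. Counts of each list under the GC correction, higher and then lower unless stated, stand beside the list. That correction also rescaled each library as a whole, and the median of all genes moved up with it. In these counts, scaling and GC content cannot be told apart.

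**Figure D1:**
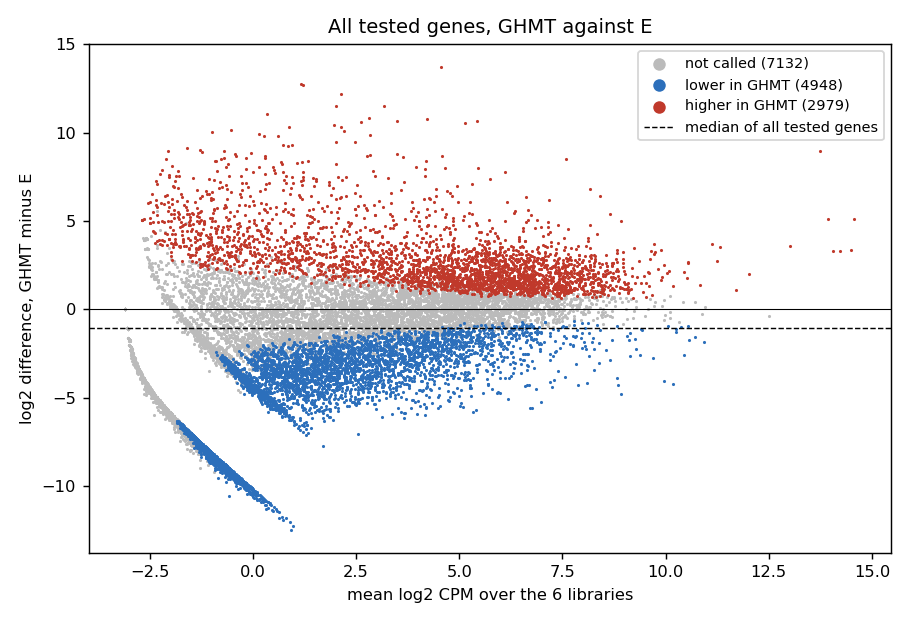
Each point is 1 of the 15059 tested genes, with the mean log2 CPM over the 6 libraries on the x axis and the log2 difference GHMT minus E on the y axis. Red points (2979) passed as higher, blue points (4948) as lower, the dashed line is the median of -1.06, and the separate lower left band holds genes without a GHMT read, whose position depends on the prior count.

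**Figure D2:**
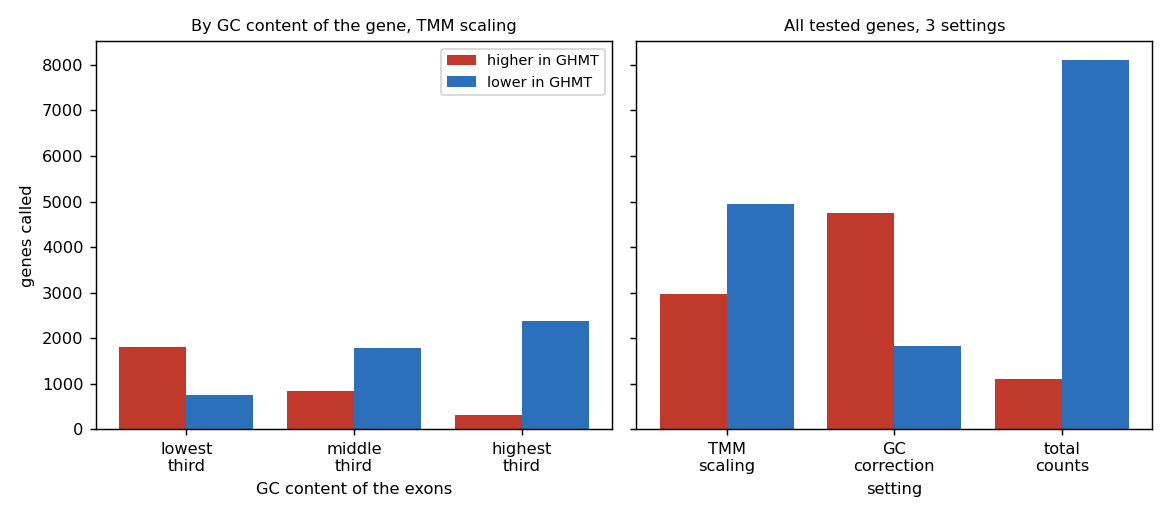
Bars count genes called higher (red) or lower (blue) in GHMT. On the left, the lowest tertile of GC content has 1811 higher and 762 lower genes and the highest tertile 313 and 2387; on the right, the same comparison gives 2979 and 4948 calls with trimmed-mean scaling, 4745 and 1837 with GC content corrected, and 1110 and 8111 on total counts.

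Of the 4 forced genes, 3 rose. Tbx5, which patterns the atria and the conduction system, stood at 151, 133 and 177 CPM in GHMT and 4.53, 4.63 and 3.06 CPM in E (log2 difference 5.23 ± 0.37 SE, adjusted p = 1.1e-07). Mef2c, which switches on muscle structural genes, stood at 246, 191 and 216 CPM in GHMT and 12.8, 15.04 and 17.1 CPM in E (log2 difference 3.86 ± 0.35 SE, adjusted p = 1.5e-06). In both genes the GHMT libraries lay close together and far above every E library. Gata4, a zinc finger factor of heart progenitors, stood at 2.62, 15.6 and 5.50 CPM in GHMT and 0.284, 0.237 and 0 CPM in E (log2 difference 5.49 ± 0.90 SE, adjusted p = 2.4e-04), on 40 GHMT reads in all. Hand2, a basic helix-loop-helix factor of the heart, stood at 1.31, 9.38 and 4.81 CPM in GHMT and 3.98, 1.72 and 1.10 CPM in E and did not pass (log2 difference 1.29 ± 0.77 SE, adjusted p = 0.17), and GHMT replicate 1 lay below 2 of the E libraries; with GC content corrected it passed as higher (log2 difference 4.38). Reads from a vector and from the cell's own gene were not told apart. Myh6, the myosin heavy chain whose promoter drives the reporter, stood at 28.8, 42.7 and 71.5 CPM in GHMT and 0.518, 0.879 and 1.56 CPM in E (log2 difference 5.63 ± 0.82 SE, adjusted p = 9.7e-05); the sort fixed its direction.

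Of 23 tested heart transcription factors, 10 rose (43.5%) and 2 fell (8.7%), against 19.8% and 32.9% of all tested genes. Their median difference was 0.88. Tbx20, a T-box factor of chamber muscle, stood at 1446, 1479.8 and 979 CPM in GHMT and 0.736, 0.778 and 1.07 CPM in E (log2 difference 10.56 ± 0.48 SE, adjusted p = 3.1e-09). Myocd, a coactivator of serum response factor in heart and smooth muscle, stood at 472, 290.2 and 125 CPM in GHMT and 1.19, 0.845 and 1.53 CPM in E (log2 difference 7.94 ± 0.53 SE, adjusted p = 7.9e-08). Its 3 GHMT values spread widely but all lay far above E. Ankrd1, a nuclear and sarcomeric ankyrin repeat protein of muscle, stood at 2695, 3048 and 3782 CPM in GHMT and 32.0, 36.7 and 40.9 CPM in E (log2 difference 6.44 ± 0.31 SE, adjusted p = 3.7e-09). Prox1, a homeobox factor that heart muscle needs for its sarcomeres, stood at 39.3, 32.3 and 42.6 CPM in GHMT and 0.569, 0.608 and 1.01 CPM in E (log2 difference 5.70 ± 0.43 SE, adjusted p = 2.3e-07). Ppargc1a, a coactivator of mitochondrial genes, stood at 17.0, 26.6 and 33.0 CPM in GHMT and 0.134, 0.203 and 0.275 CPM in E (log2 difference 6.99 ± 0.48 SE, adjusted p = 9.5e-08). Per kilobase of exon, the GHMT mean of Ankrd1 was 1100.1 CPM, above 108 CPM for Tbx20, 32.9 CPM for Tbx5 and 13.8 CPM for Mef2c. Nkx2-5, a homeobox gene of early heart muscle, had no read in any of the 6 libraries. With GC content corrected, 17 of the heart factor list rose and 0 fell, and on total counts 9 rose and 6 fell.

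Several channels of the heart's pacemaker and conduction tissue rose, though not all factors of that tissue did. In the sinus node list, 10 of 23 tested members were higher and 3 lower, with a median of 1.27. The counts were 15 and 1 with GC content corrected, and 8 and 7 on total counts (median -0.15). Hcn4, which carries the pacemaker current of the sinus node, stood at 2918, 2527 and 1271 CPM in GHMT and 0.201, 0.169 and 0.0917 CPM in E (log2 difference 13.71 ± 0.63 SE, adjusted p = 3.1e-09). It had the largest difference among passing genes with a mean of at least 10 CPM, predicted genes and pseudogenes aside. Kcnj5 and Kcnj3, which together form the acetylcholine-gated potassium channel, stood at 80.0, 114 and 400.0 CPM and 169, 87.0 and 67.4 CPM in GHMT, and no E library exceeded 0.203 CPM for either. Kcnj5 was highest in replicate 3 and Kcnj3 in replicate 1. Gja5, the connexin of atria and conduction fibres, stood at 19.7, 34.9 and 44.0 CPM in GHMT and 0.518, 0.135 and 0.397 CPM in E (log2 difference 6.50 ± 0.57 SE, adjusted p = 1.0e-06). Tbx18, a T-box factor of the sinus horn and epicardium, stood at 376, 350.1 and 323 CPM in GHMT and 18.1, 21.1 and 27.7 CPM in E (log2 difference 3.97 ± 0.37 SE, adjusted p = 1.7e-06). Tbx3, which holds back chamber genes in the node, stood at 23.6, 19.3 and 22.7 CPM in GHMT and 20.3, 20.9 and 23.4 CPM in E. Shox2, a homeobox factor of the node, stood at 44.6, 113 and 88.7 CPM in GHMT and 72.9, 97.1 and 128 CPM in E. Neither passed, and in both the groups overlapped (adjusted p of 0.98 and 0.56). With GC content corrected both passed as higher (log2 differences 2.53 and 1.57), and on total counts Tbx3 and Shox2 passed as lower (-1.42 and -1.52).

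Genes typical of atria and of ventricles were both higher. Of 13 tested atrial genes 7 rose (53.8%) and 0 fell, and of 12 ventricular genes 8 rose (66.7%) and 2 fell (16.7%). The medians were 2.80 and 3.60, and 19.8% of all tested genes rose and 32.9% fell. With GC content corrected, the counts were 11 and 0 for atrial and 9 and 0 for ventricular genes. Myl7, the atrial regulatory light chain, stood at 14.4, 12.5 and 13.7 CPM in GHMT and 0.1004, 0 and 0 CPM in E (log2 difference 8.03 ± 1.14 SE, adjusted p = 7.9e-05). Myl2, its ventricular counterpart, stood at 11.8, 31.3 and 80.4 CPM in GHMT and 1.17, 1.45 and 2.87 CPM in E (log2 difference 4.53 ± 0.64 SE, adjusted p = 7.9e-05). Myl2 was spread from the lowest to the highest GHMT replicate, whereas the Myl7 values lay together. Nppa, which encodes atrial natriuretic peptide, stood at 7.87, 35.4 and 26.1 CPM in GHMT and 0.151, 0.203 and 0.0917 CPM in E (log2 difference 7.28 ± 0.60 SE, adjusted p = 6.1e-07). Pln, the brake of the calcium pump, stood at 138, 112 and 179 CPM in GHMT and 1.44, 1.69 and 5.26 CPM in E (log2 difference 5.68 ± 0.53 SE, adjusted p = 1.9e-06). Irx3, a homeobox factor of the ventricular conduction system, had no read in GHMT and 5.65, 8.65 and 5.84 CPM in E, at least 9.26-fold lower; that call was lost with GC content corrected.

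Of 21 tested thick filament and M-band genes, 14 rose (66.7%) and 1 fell (4.76%), against 19.8% and 32.9% of all tested genes. The median of the list was 4.45, and 18 rose and 0 fell with GC content corrected. Ttn, the giant spring that spans the sarcomere, stood at 193, 194 and 258 CPM in GHMT and 5.17, 5.24 and 6.42 CPM in E (log2 difference 5.26 ± 0.31 SE, adjusted p = 2.0e-08). Unc45b, a chaperone that folds myosin, stood at 15.7, 4.69 and 44.0 CPM in GHMT and 0.0502, 0.0338 and 0.0917 CPM in E (log2 difference 8.37 ± 0.86 SE, adjusted p = 4.8e-06). Trim55, a ligase of the M-band, stood at 7.87, 9.90 and 11.0 CPM in GHMT and 0.0335, 0 and 0.0917 CPM in E (log2 difference 7.65 ± 0.62 SE, adjusted p = 4.8e-07). Groups stayed apart in all 3 genes, with Unc45b the most spread within GHMT. Myom2, an M-band protein that crosslinks myosin, stood at 7.87, 14.6 and 59.8 CPM in GHMT and 0.686, 0.541 and 0.611 CPM in E (log2 difference 5.50 ± 0.62 SE, adjusted p = 1.1e-05), highest in GHMT replicate 3.

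The thin filament list was more mixed, with 11 higher (57.9%) and 4 lower (21.1%) of 19 tested members. Its median was 3.10, and 14 rose and 2 fell with GC content corrected. The shares of all tested genes were 19.8% higher and 32.9% lower. Tnnt2, the heart troponin that anchors the complex to tropomyosin, stood at 231, 206 and 269 CPM in GHMT and 3.65, 1.35 and 1.28 CPM in E (log2 difference 6.78 ± 0.68 SE, adjusted p = 3.9e-06). Actc1, the heart actin, stood at 80.0, 102 and 126 CPM in GHMT and 1.19, 1.86 and 4.83 CPM in E (log2 difference 5.30 ± 0.49 SE, adjusted p = 1.6e-06). Tnnc1, the calcium sensor of the filament, stood at 15.7, 19.3 and 28.2 CPM in GHMT and 0.870, 0.710 and 0.520 CPM in E (log2 difference 4.90 ± 0.64 SE, adjusted p = 3.9e-05). In each of them the lowest GHMT library was above the highest E library. Nebl, a nebulin relative that ties actin to the Z-disc, stood at 187, 69.8 and 59.8 CPM in GHMT and 0.636, 0.947 and 1.68 CPM in E (log2 difference 6.59 ± 0.58 SE, adjusted p = 1.2e-06). Cap2, an actin-binding protein of muscle, stood at 748, 846 and 562 CPM in GHMT and 12.04, 15.1 and 15.9 CPM in E (log2 difference 5.65 ± 0.35 SE, adjusted p = 2.6e-08). Against these, Acta1, the skeletal actin, had no read in GHMT and 10.6, 5.61 and 4.71 CPM in E, at least 9.61-fold lower, a call lost with GC content corrected and without GHMT replicate 2. Tpm2, a tropomyosin found in smooth and slow muscle, stood at 0, 7.82 and 8.25 CPM in GHMT and 213, 137 and 81.9 CPM in E (log2 difference -4.58 ± 0.76 SE, adjusted p = 2.6e-04).

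Of 30 Z-disc and costamere genes, 14 rose (46.7%) and 6 fell (20%), against 19.8% and 32.9% of all tested genes. The median was 1.26, and 19 rose and 0 fell with GC content corrected. On total counts 10 rose and 7 fell (median -0.21). Ldb3, which holds the Z-disc together under load, stood at 1277, 982 and 794 CPM in GHMT and 4.57, 4.16 and 5.04 CPM in E (log2 difference 7.79 ± 0.36 SE, adjusted p = 3.1e-09). Pdlim3, an actinin partner, stood at 38.0, 33.3 and 11.7 CPM in GHMT and 0.719, 0.778 and 0.306 CPM in E (log2 difference 5.49 ± 0.61 SE, adjusted p = 9.7e-06). Actn2, the sarcomeric actinin itself, was low at 2.62, 4.17 and 9.62 CPM in GHMT and 0.201, 0.135 and 0.153 CPM in E (log2 difference 5.03 ± 0.68 SE, adjusted p = 5.4e-05), on 24 GHMT reads. Per kilobase of exon, the GHMT mean of Ldb3 was 167 CPM, against 63.4 CPM for Actc1, 30.3 CPM for Tnnt2 and 1.44 CPM for Actn2, so sarcomere genes that rose stood at very different levels.

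Genes that release and refill the calcium store were among the higher ones. Of 28 tested members of the calcium cycling list, 15 were higher (53.6%) and 3 lower (10.7%), against 19.8% and 32.9% of all tested genes. The median of the list was 1.75, and 21 rose and 0 fell with GC content corrected. On total counts that list was split evenly, with 10 higher and 10 lower. Ryr2, the channel that opens the store, stood at 233, 271 and 524 CPM in GHMT and 0.585, 0.811 and 1.68 CPM in E (log2 difference 8.40 ± 0.53 SE, adjusted p = 3.9e-08). Casq2, which binds calcium inside the store, stood at 233, 182 and 335 CPM in GHMT and 0.535, 0.845 and 1.44 CPM in E (log2 difference 8.07 ± 0.50 SE, adjusted p = 3.4e-08). Trdn, which links the last pair, stood at 195, 153 and 181 CPM in GHMT and 0.0836, 0.135 and 0.367 CPM in E (log2 difference 9.85 ± 0.57 SE, adjusted p = 1.7e-08). For all 3 the lowest GHMT value was 152.7 CPM (Trdn) and the highest E value 1.68 CPM (Ryr2). Atp2a2, the pump that refills the store and is also active in other cells, stood at 2860.3, 2746 and 2043 CPM in GHMT and 251, 218 and 299 CPM in E (log2 difference 3.31 ± 0.30 SE, adjusted p = 1.3e-06). Cacnb2, a subunit of the calcium channel of the cell surface, stood at 73.4, 28.1 and 50.2 CPM in GHMT and 1.89, 1.93 and 2.23 CPM in E (log2 difference 4.62 ± 0.44 SE, adjusted p = 1.9e-06).

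**Figure D3:**
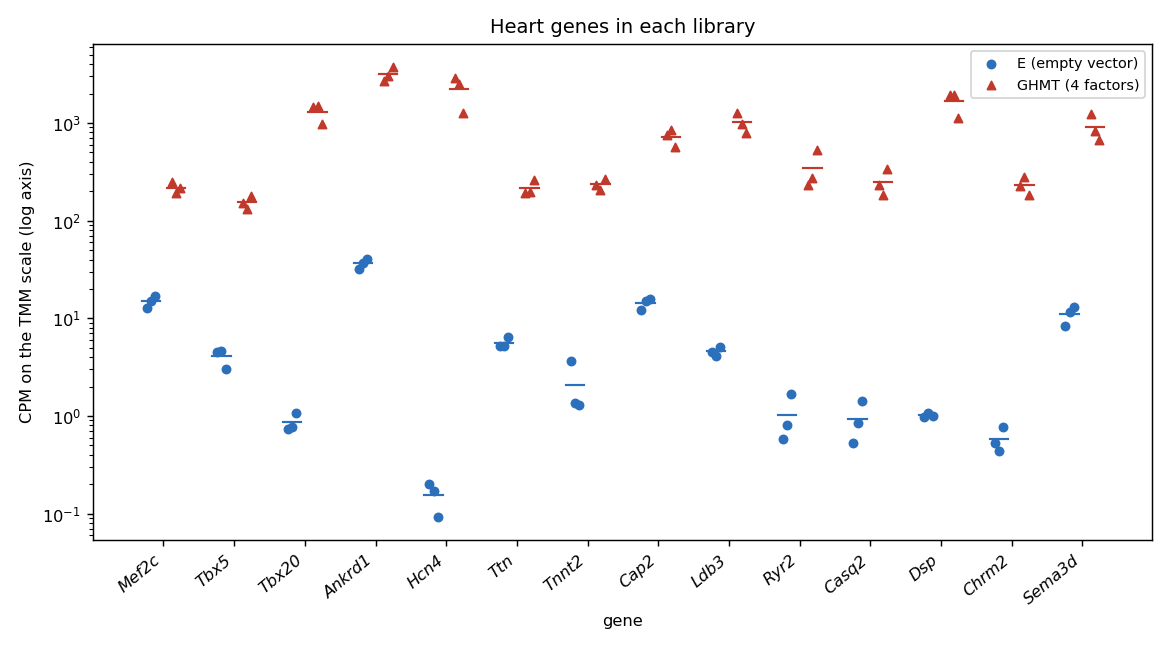
CPM on the trimmed-mean scale, on a log axis, in each of the 3 E libraries (blue circles) and the 3 GHMT libraries (red triangles) for 14 heart genes, with the group mean as a line. In every gene shown the GHMT libraries lie above the E libraries, from Mef2c (log2 difference 3.86) to Hcn4 (13.71).

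Junction and channel genes followed. In the intercalated disc list, 13 of 20 rose (65%) and 2 fell (10%), against 19.8% and 32.9% of all tested genes. The median of the list was 1.59, and 16 rose and 1 fell with GC content corrected. On total counts 8 rose and 4 fell (median 0.21). Dsp, the desmosome's link to intermediate filaments, stood at 1947, 1954 and 1117 CPM in GHMT and 0.970, 1.08 and 1.01 CPM in E (log2 difference 10.67 ± 0.40 SE, adjusted p = 6.0e-10). Ctnna3, an alpha catenin of heart junctions, stood at 11.8, 40.6 and 35.1 CPM in GHMT and 0.0669, 0.135 and 0.0611 CPM in E (log2 difference 8.34 ± 0.68 SE, adjusted p = 5.4e-07). Pkp2, another desmosome protein, stood at 215, 196 and 142 CPM in GHMT and 16.1, 16.6 and 23.2 CPM in E (log2 difference 3.30 ± 0.33 SE, adjusted p = 3.0e-06). Gja1, the main connexin of working muscle and also made by fibroblasts, stood at 1024, 928 and 810.4 CPM in GHMT and 138, 132 and 225 CPM in E (log2 difference 2.48 ± 0.31 SE, adjusted p = 2.9e-05). By contrast, the connexin gene Gjc1 stood at 0, 4.69 and 7.56 CPM in GHMT and 28.4, 24.3 and 34.3 CPM in E (log2 difference -2.68 ± 0.61 SE, adjusted p = 0.0024). Of 32 sodium and potassium channel genes 13 rose (40.6%) and 2 fell (6.25%). The channel counts were 17 and 0 with GC content corrected, and 8 and 3 on total counts (median 0). Kcnd3, which carries the transient outward current, stood at 38.0, 63.0 and 52.9 CPM in GHMT and 0.167, 0.101 and 0.581 CPM in E (log2 difference 7.51 ± 0.62 SE, adjusted p = 6.4e-07).

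Receptors and signals of the heart's nerves split, with 10 higher (41.7%) and 7 lower (29.2%) of 24 tested members. The share lower was near the 32.9% of all tested genes, and the share higher was above their 19.8%. The counts were 11 and 2 with GC content corrected, and 6 and 9 on total counts. Chrm2, the muscarinic receptor that slows the heart, stood at 228, 282 and 185 CPM in GHMT and 0.535, 0.439 and 0.764 CPM in E (log2 difference 8.63 ± 0.48 SE, adjusted p = 1.4e-08). Adora1, an adenosine receptor, stood at 27.5, 56.3 and 22.0 CPM in GHMT and 0.151, 0 and 0.122 CPM in E (log2 difference 8.39 ± 0.79 SE, adjusted p = 2.3e-06). Adrb1, the main beta receptor of heart muscle, stood at 31.5, 15.6 and 7.56 CPM in GHMT and 0.251, 0.135 and 0.183 CPM in E (log2 difference 6.45 ± 0.66 SE, adjusted p = 4.6e-06). These 3 receptors were near 0 in every E library. On the lower side, Pde4b, which degrades cyclic AMP, stood at 3.93, 5.73 and 4.12 CPM in GHMT and 39.1, 46.8 and 43.7 CPM in E (log2 difference -3.19 ± 0.41 SE, adjusted p = 3.5e-05). Rgs4, which shortens G protein signals, stood at 10.5, 0 and 1.37 CPM in GHMT and 27.5, 33.8 and 44.0 CPM in E (log2 difference -3.57 ± 0.84 SE, adjusted p = 0.003). Among secreted factors, Corin, the protease that activates atrial natriuretic peptide, stood at 155, 119 and 79.0 CPM in GHMT and 0.0669, 0.169 and 0.275 CPM in E (log2 difference 9.46 ± 0.55 SE, adjusted p = 2.0e-08).

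Among all tested genes, 32.9% fell and 19.8% rose. Of 17 smooth muscle genes 8 fell (47.1%) and 3 rose (17.6%), with a median of -2.48, or -1.42 at bounds. The higher ones included Myocd and Casq2, which heart muscle also uses. Tagln, an actin-binding protein of smooth muscle and activated fibroblasts, stood at 38.0, 55.2 and 84.5 CPM in GHMT and 1927, 999 and 513 CPM in E (log2 difference -4.26 ± 0.58 SE, adjusted p = 5.8e-05). Cnn1, a calponin, stood at 3.93, 1.56 and 4.81 CPM in GHMT and 193, 143 and 132 CPM in E (log2 difference -5.58 ± 0.55 SE, adjusted p = 3.1e-06). Actg2, an intestinal smooth muscle actin, stood at 1.31, 4.17 and 2.75 CPM in GHMT and 217, 159 and 60.8 CPM in E (log2 difference -5.59 ± 0.68 SE, adjusted p = 2.3e-05). E replicate 3 had the lowest E value in each, yet it stayed above every GHMT library. Corrected for GC content, 6 of the list rose and 4 fell. No skeletal muscle gene passed (5 tested; 2 rose with GC content corrected), and Myod1, the master regulator of skeletal muscle, had no read in the 6 libraries.

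Fibroblast surface genes fell more often than tested genes at large, of which 32.9% fell and 19.8% rose, and fibroblast transcription factors did so about as often. Of 27 surface and cytoskeleton genes 15 fell (55.6%) and 3 rose (11.1%), and of 29 fibroblast transcription factors 10 fell (34.5%) and 7 rose (24.1%). With GC content corrected, these became 10 lower with 7 higher, and 1 lower with 13 higher, so the split of the factors turned. Thy1, a surface glycoprotein used to sort fibroblasts, stood at 1.31, 9.38 and 6.87 CPM in GHMT and 534, 239 and 93.8 CPM in E (log2 difference -5.47 ± 0.75 SE, adjusted p = 5.8e-05). Itga5, a chain of the fibronectin receptor, stood at 1.31, 1.04 and 3.44 CPM in GHMT and 211, 86.6 and 27.8 CPM in E (log2 difference -5.79 ± 1.05 SE, adjusted p = 5.2e-04). Anxa2, a membrane-binding annexin, stood at 15.7, 18.2 and 19.9 CPM in GHMT and 1219, 1149 and 206 CPM in E (log2 difference -5.56 ± 0.66 SE, adjusted p = 1.9e-05). E replicate 3 was the lowest E library in all of these. Meox2, a homeobox factor of mesenchyme, had no read in GHMT and 11.6, 10.4 and 9.78 CPM in E, at least 14.6-fold lower. Among the factors that rose, Foxc1, a forkhead factor, stood at 38.0, 62.5 and 50.2 CPM in GHMT and 6.69, 6.86 and 7.46 CPM in E (log2 difference 2.85 ± 0.39 SE, adjusted p = 5.7e-05). Tbx15, a T-box factor of limb and skin mesenchyme, stood at 1363, 308 and 449 CPM in GHMT and 95.7, 119 and 119 CPM in E (log2 difference 2.67 ± 0.46 SE, adjusted p = 3.6e-04). Mme, a surface peptidase, stood at 218, 125 and 77.0 CPM in GHMT and 10.7, 12.7 and 16.3 CPM in E (log2 difference 3.39 ± 0.43 SE, adjusted p = 3.1e-05).

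Matrix genes fell more often than they rose, and more often than all tested genes, of which 32.9% fell and 19.8% rose. Of 29 collagen genes 17 fell (58.6%) and 6 rose (20.7%), with a median of -1.52, or -0.96 at bounds. Col1a2, a chain of the main fibrillar collagen, stood at 501, 1085 and 1000.1 CPM in GHMT and 3398, 2846 and 2327 CPM in E (log2 difference -1.73 ± 0.31 SE, adjusted p = 4.8e-04). Col12a1, a collagen that decorates fibrils, stood at 543, 513 and 652 CPM in GHMT and 3192, 3436 and 3736 CPM in E (log2 difference -2.60 ± 0.24 SE, adjusted p = 1.9e-06). GHMT replicate 1 was the lowest of all libraries for Col1a2. Type IV collagen chains, which form basement membranes, were split, with Col4a3, Col4a4 and Col4a5 higher and Col4a2 lower. Col4a3 stood at 114, 82.3 and 124 CPM in GHMT and 0.251, 0.304 and 0.856 CPM in E (log2 difference 7.83 ± 0.54 SE, adjusted p = 9.4e-08). Col4a4 stood at 30.1, 82.3 and 74.9 CPM in GHMT and 0.569, 0.406 and 0.428 CPM in E (log2 difference 7.04 ± 0.53 SE, adjusted p = 2.5e-07). Col4a5 stood at 1325, 1364 and 704 CPM in GHMT and 116, 67.0 and 47.7 CPM in E (log2 difference 3.88 ± 0.39 SE, adjusted p = 4.5e-06). These 3 chains assemble into 1 network, and in each the groups lay apart. Col4a2 stood at 6.55, 28.1 and 18.6 CPM in GHMT and 391, 141 and 82.1 CPM in E (log2 difference -3.45 ± 0.83 SE, adjusted p = 0.0034), a call lost with GC content corrected. Col13a1, a transmembrane collagen, had the largest rise of the list, at 28.8, 24.0 and 8.25 CPM in GHMT and 0.0335, 0 and 0 CPM in E on 80 GHMT reads and 2 E reads. After the GC correction, 11 collagen genes rose and 5 fell.

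Among 44 other matrix and cross-linking genes, 29 fell (65.9%) and 7 rose (15.9%), with a median of -2.69. Fn1, fibronectin, stood at 168, 414 and 298 CPM in GHMT and 8792, 5693 and 2253 CPM in E (log2 difference -4.24 ± 0.50 SE, adjusted p = 1.6e-05). Vcan, a large proteoglycan of loose matrix, stood at 385, 328 and 334 CPM in GHMT and 801, 1106 and 1424 CPM in E (log2 difference -1.67 ± 0.31 SE, adjusted p = 6.3e-04). Lox, which cross-links collagen, stood at 1201, 1085 and 701 CPM in GHMT and 2352, 2938 and 3595 CPM in E (log2 difference -1.57 ± 0.32 SE, adjusted p = 0.0011). Postn, a matrix protein of activated fibroblasts, stood at 107, 300.1 and 368 CPM in GHMT and 3996, 4142 and 5049.5 CPM in E (log2 difference -4.08 ± 0.44 SE, adjusted p = 7.8e-06). None of these overlapped, and Lox and Vcan differed least. Loxl4, a relative of Lox, had no read in GHMT and 19.8, 14.2 and 6.51 CPM in E, at least 18.6-fold lower. Lum, a small proteoglycan and among the 7 that rose, stood at 977, 1122 and 702 CPM in GHMT and 64.3, 77.9 and 92.8 CPM in E (log2 difference 3.58 ± 0.37 SE, adjusted p = 5.4e-06). Sparcl1, a secreted counter-adhesive protein, stood at 279, 261 and 222 CPM in GHMT and 4.52, 4.29 and 2.63 CPM in E (log2 difference 6.05 ± 0.33 SE, adjusted p = 1.1e-08). Efemp1, a fibulin, stood at 1836, 2206 and 2148 CPM in GHMT and 126, 172 and 261 CPM in E (log2 difference 3.47 ± 0.34 SE, adjusted p = 3.4e-06). Of 36 proteases and inhibitors 28 fell (77.8%) and 3 rose (8.33%), with a median of -3.27. Plau, the urokinase that starts plasmin, stood at 1.31, 2.61 and 0 CPM in GHMT and 97.4, 88.1 and 109.7 CPM in E (log2 difference -6.12 ± 0.63 SE, adjusted p = 5.0e-06). Timp1, a protease inhibitor, stood at 7.87, 5.73 and 6.19 CPM in GHMT and 535, 351 and 103 CPM in E (log2 difference -5.68 ± 0.58 SE, adjusted p = 4.4e-06). Mmp2, a gelatinase, stood at 1.31, 3.65 and 3.44 CPM in GHMT and 201, 87.8 and 15.01 CPM in E (log2 difference -5.06 ± 0.99 SE, adjusted p = 8.6e-04). For Mmp2 the E libraries spread widely, and the lowest of them was still above GHMT. With GC content corrected, 14 of the list fell and 6 rose, and 21 and 11 of the other matrix genes.

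Genes of the epicardium, the outer layer of the heart, were among the higher ones. Of 10 tested, 6 rose (60%) and 0 fell, against 19.8% and 32.9% of all tested genes. The median was 2.01, and 7 rose and 0 fell with GC content corrected. On total counts 4 rose and 2 fell (median 0.81). Sema3d, a guidance signal, stood at 1248, 836 and 675 CPM in GHMT and 8.43, 11.6 and 13.1 CPM in E (log2 difference 6.38 ± 0.46 SE, adjusted p = 1.6e-07). Wt1, a zinc finger factor of the epicardium, stood at 15.7, 33.3 and 37.8 CPM in GHMT and 2.22, 2.40 and 2.29 CPM in E (log2 difference 3.67 ± 0.45 SE, adjusted p = 2.1e-05). Bnc1, a zinc finger factor of mesothelium, stood at 21.0, 36.0 and 55.7 CPM in GHMT and 2.79, 2.06 and 1.53 CPM in E (log2 difference 4.14 ± 0.51 SE, adjusted p = 2.3e-05). Tbx18, given above, is on this list too.

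Signalling lists held higher and lower genes, as did all tested genes (19.8% higher, 32.9% lower). Of 39 genes of the TGF-beta and BMP pathways 11 rose and 14 fell (28.2% and 35.9%; 20 and 5 with GC content corrected). The ligand gene Bmp2 stood at 45.9, 87.0 and 41.9 CPM in GHMT and 0.184, 0.101 and 0.275 CPM in E (log2 difference 8.23 ± 0.63 SE, adjusted p = 2.6e-07). Chrdl1, a secreted inhibitor of such ligands, stood at 398, 129 and 65.3 CPM in GHMT and 3.03, 2.87 and 2.60 CPM in E (log2 difference 6.10 ± 0.58 SE, adjusted p = 2.3e-06). Ltbp2, a matrix protein of the latent TGF-beta binding family, stood at 2.62, 4.17 and 0.687 CPM in GHMT and 260.0, 137 and 105 CPM in E (log2 difference -6.01 ± 0.65 SE, adjusted p = 8.1e-06). Chrdl1 differed most between replicates, highest in GHMT replicate 1. Of 39 Wnt and Notch genes 11 rose and 7 fell (28.2% and 17.9%; 19 and 2 with GC content corrected). The Wnt receptor gene Fzd7 stood at 682, 884 and 236 CPM in GHMT and 39.2, 44.1 and 46.0 CPM in E (log2 difference 3.80 ± 0.41 SE, adjusted p = 8.2e-06), and the Notch ligand gene Jag1 at 263, 293 and 195 CPM in GHMT and 44.5, 36.4 and 33.9 CPM in E (log2 difference 2.71 ± 0.28 SE, adjusted p = 4.8e-06). Sfrp2, a secreted Wnt binder, had no read in GHMT and 7.01, 4.94 and 4.89 CPM in E, at least 7.74-fold lower. Among 40 growth factors and receptor kinases 10 rose and 12 fell (17 and 5 with GC content corrected). On total counts Wnt and Notch genes were 8 higher and 18 lower. Igf2, an imprinted growth factor of the embryo, stood at 7465, 8268 and 8237 CPM in GHMT and 569, 649 and 651 CPM in E (log2 difference 3.68 ± 0.27 SE, adjusted p = 1.7e-07). Angpt1, a vessel ligand that heart muscle also makes, stood at 241, 176 and 119.6 CPM in GHMT and 10.4, 11.9 and 12.99 CPM in E (log2 difference 3.92 ± 0.38 SE, adjusted p = 3.0e-06). Hgf, hepatocyte growth factor, stood at 1.31, 8.34 and 1.37 CPM in GHMT and 39.2, 37.8 and 48.9 CPM in E (log2 difference -3.35 ± 0.62 SE, adjusted p = 5.7e-04).

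Genes of cell division were lower almost throughout. Of 40 mitosis genes 35 fell (87.5%) and 0 rose, and of 39 DNA replication genes 31 fell (79.5%) and 0 rose. The medians were -3.68 and -4.41, the latter -3.35 at bounds. Of all tested genes 32.9% fell and 19.8% rose. The GC correction left 35 and 21 lower, with 1 and 0 higher. Mki67, a coat of mitotic chromosomes, stood at 13.1, 7.29 and 17.9 CPM in GHMT and 230.0, 302 and 421 CPM in E (log2 difference -4.66 ± 0.42 SE, adjusted p = 1.4e-06). Top2a, which untangles chromosomes, stood at 7.87, 26.6 and 26.8 CPM in GHMT and 226, 295 and 439 CPM in E (log2 difference -3.91 ± 0.45 SE, adjusted p = 1.2e-05). Cdk1, the kinase that starts mitosis, stood at 1.31, 1.56 and 1.37 CPM in GHMT and 93.0, 97.0 and 123 CPM in E (log2 difference -6.17 ± 0.50 SE, adjusted p = 5.0e-07). The groups were far apart in all 3 genes, and no GHMT library came near the lowest E library. Plk1, a mitotic kinase, had no read in GHMT and 17.3, 13.6 and 7.61 CPM in E, at least 17.7-fold lower. Cdc20, which starts the exit from mitosis, had no read in GHMT and 20.7, 11.5 and 3.27 CPM in E, at least 16.3-fold lower. Rrm2, a subunit of the enzyme that makes DNA building blocks, stood at 6.55, 2.08 and 0.687 CPM in GHMT and 68.0, 91.1 and 121 CPM in E (log2 difference -5.16 ± 0.59 SE, adjusted p = 1.3e-05). Rrm1, its partner, stood at 40.6, 32.8 and 52.9 CPM in GHMT and 169, 164 and 246 CPM in E (log2 difference -2.20 ± 0.33 SE, adjusted p = 1.2e-04). Of the list of cell cycle inhibitors and D cyclins, 7 rose and 8 fell of 25 tested (14 and 4 with GC content corrected). Without the correction the shares were 28% and 32%, against 19.8% and 32.9% of all tested genes. The share lower was thus near that of all genes. Among those that rose, the inhibitor gene Cdkn1c stood at 62.9, 77.6 and 129 CPM in GHMT and 15.5, 16.3 and 15.8 CPM in E (log2 difference 2.51 ± 0.32 SE, adjusted p = 3.4e-05). Cdkn1b, its relative, stood at 357, 485 and 241 CPM in GHMT and 40.7, 49.7 and 52.8 CPM in E (log2 difference 2.92 ± 0.32 SE, adjusted p = 9.1e-06). Rb1, the retinoblastoma gene, stood at 215, 121 and 127 CPM in GHMT and 12.9, 17.1 and 25.3 CPM in E (log2 difference 3.06 ± 0.41 SE, adjusted p = 4.7e-05). For all 3 the groups lay apart. Ccng1, a cyclin induced by p53, stood at 5335, 4092 and 2439 CPM in GHMT and 416, 591 and 881 CPM in E (log2 difference 2.65 ± 0.39 SE, adjusted p = 9.6e-05). Among those that fell, the inhibitor gene Cdkn2d stood at 1.31, 0 and 0 CPM in GHMT and 5.49, 2.77 and 4.13 CPM in E, on 1 GHMT read; that call was lost with GC content corrected.

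Interferon-responsive genes were higher as a list, 29 of 53 rising (54.7%) and 5 falling (9.43%), against 19.8% and 32.9% of all tested genes. The median of the list was 1.93, and 39 rose and 2 fell with GC content corrected. Ifit1, which binds foreign RNA, stood at 832, 666 and 589.7 CPM in GHMT and 3.16, 4.33 and 5.04 CPM in E (log2 difference 7.38 ± 0.42 SE, adjusted p = 1.5e-08). Ddx60, a helicase of antiviral sensing, stood at 161, 59.9 and 88.7 CPM in GHMT and 0.385, 0.406 and 0.856 CPM in E (log2 difference 7.54 ± 0.62 SE, adjusted p = 5.8e-07). Oas3, which makes the messenger that activates RNase L, stood at 7.87, 9.38 and 75.6 CPM in GHMT and 0.0335, 0 and 0.0917 CPM in E (log2 difference 9.33 ± 1.18 SE, adjusted p = 3.0e-05). Oas3 was far highest in GHMT replicate 3. Rsad2, an antiviral enzyme highest in replicate 1, stood at 125, 31.8 and 8.94 CPM in GHMT and 0.870, 0.338 and 0.611 CPM in E (log2 difference 6.42 ± 0.83 SE, adjusted p = 3.6e-05). Ifih1, the sensor of long double-stranded RNA, stood at 131, 102 and 126 CPM in GHMT and 5.02, 6.49 and 7.43 CPM in E (log2 difference 4.24 ± 0.37 SE, adjusted p = 8.7e-07). Ifi47, an interferon-induced GTPase, went against the list with no read in GHMT and 2.01, 1.86 and 2.32 CPM in E, at least 2.85-fold lower. Of 30 cytokine and chemokine genes 13 fell and 4 rose, 43.3% and 13.3% against 32.9% and 19.8% of all tested genes (6 and 6 with GC content corrected). Ptgs2, the enzyme of inflammatory prostaglandins, stood at 55.1, 72.4 and 12.4 CPM in GHMT and 152, 262 and 408 CPM in E (log2 difference -2.55 ± 0.57 SE, adjusted p = 0.0021). Ccl11, an eosinophil chemokine, had no read in GHMT and 3.83, 2.57 and 3.18 CPM in E, at least 4.40-fold lower. Il33, an alarm cytokine, stood at 6.55, 13.5 and 16.5 CPM in GHMT and 1.77, 2.20 and 1.65 CPM in E (log2 difference 2.75 ± 0.42 SE, adjusted p = 1.4e-04).

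**Figure D4:**
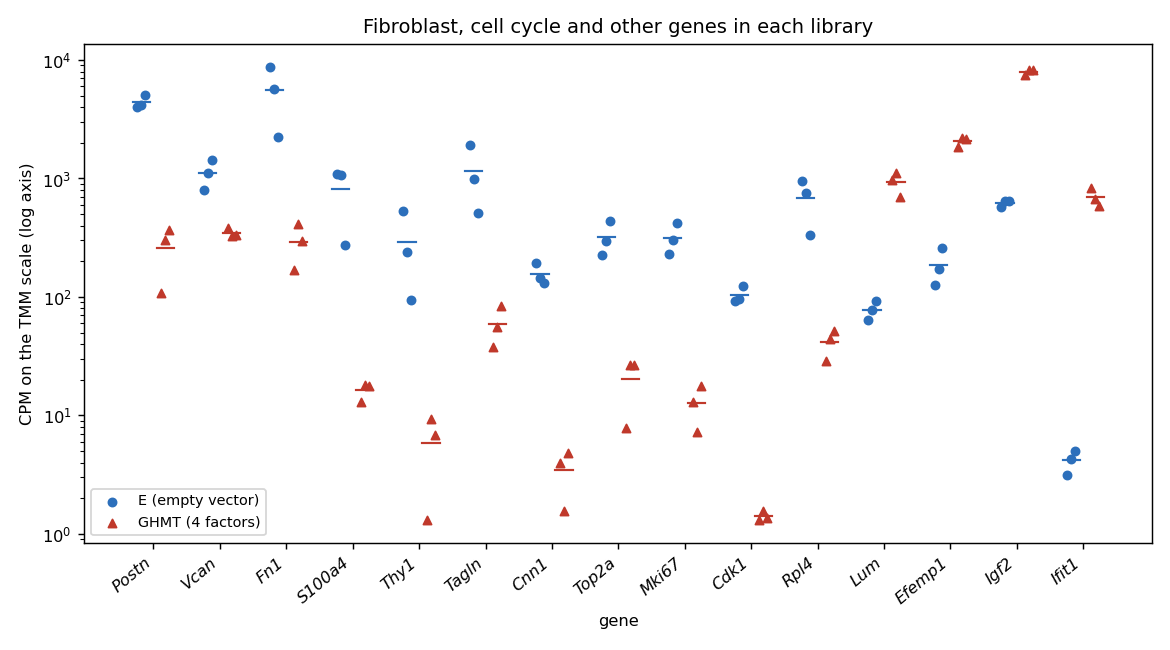
CPM on the trimmed-mean scale, on a log axis, in each E library (blue circles) and each GHMT library (red triangles) for 15 fibroblast, cell cycle, ribosomal and other genes, with the group mean as a line. The first 11 genes, from Postn to Rpl4, are lower in every GHMT library than in any E library, and the last 4, from Lum to Ifit1, are higher.

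With trimmed-mean scaling, mRNAs of the mitochondrial genome mostly rose, while nuclear genes of the respiratory complexes fell more often than they rose. Of 13 mRNAs of the mitochondrial genome 10 were tested, of which 9 rose (9 and 0 with GC content corrected). No GHMT read was counted for 3 of the 13, and no E read for 1. Alignments to several places were not counted. They numbered 2813395 to 6994222 in GHMT libraries, beside 1872558 to 2200815 gene reads. In E libraries they numbered 17857108 to 35208112, beside 15971154 to 33552138. Their part in the mitochondrial levels was not tested. Of 36 nuclear-encoded genes of complex I 16 fell (44.4%) and 2 rose (5.56%). Of 41 genes of complexes II to V 19 fell (46.3%) and 4 rose (9.76%), against 32.9% and 19.8% of all tested genes. The counts of these nuclear lists depended on the GC correction: with it, 4 and 3 fell and 4 and 8 rose. The share of gene reads on mt-Nd6 alone, a gene on the strand opposite to most others, was 43.1%, 3.34% and 14.0% in GHMT and at most 0.234% in E. Among nuclear genes, Atp5b, the catalytic subunit of ATP synthase, stood at 40.6, 93.8 and 124 CPM in GHMT and 508, 385 and 298 CPM in E (log2 difference -2.19 ± 0.37 SE, adjusted p = 3.0e-04). Cycs, cytochrome c, stood at 41.9, 49.0 and 33.0 CPM in GHMT and 2.53, 6.19 and 5.66 CPM in E (log2 difference 3.11 ± 0.49 SE, adjusted p = 1.7e-04). Of 35 fatty acid genes 12 rose and 7 fell (14 and 1 with GC content corrected, 5 and 18 on total counts). Lpl, which frees fatty acids from blood lipids, stood at 1657, 1513 and 1071 CPM in GHMT and 76.1, 71.3 and 74.8 CPM in E (log2 difference 4.25 ± 0.35 SE, adjusted p = 5.2e-07). Glycolysis genes were 4 higher (13.8%) and 13 lower (44.8%) of 29, turning to 10 and 1 with GC content corrected. Mb, the oxygen store of muscle, stood at 6.55, 18.8 and 30.2 CPM in GHMT and 0.569, 0.778 and 0.978 CPM in E (log2 difference 4.64 ± 0.76 SE, adjusted p = 2.5e-04).

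Protein-making genes were lower more often than all tested genes, of which 32.9% fell and 19.8% rose. Of 44 tested ribosomal protein genes 30 fell (68.2%) and 1 rose (2.27%), with a median of -3.61, or -2.95 at bounds. With GC content corrected, 12 fell and 1 rose. Rpl4, a protein of the large subunit, stood at 28.8, 43.8 and 51.5 CPM in GHMT and 947, 751 and 336 CPM in E (log2 difference -4.02 ± 0.43 SE, adjusted p = 7.5e-06). Rps3, of the small subunit, stood at 10.5, 21.9 and 41.9 CPM in GHMT and 675, 396 and 448 CPM in E (log2 difference -4.31 ± 0.43 SE, adjusted p = 3.7e-06). These genes have many processed copies in the genome, and reads that matched several places were not counted, so their levels are uncertain. Of 22 genes of amino acid supply 15 fell (68.2%) and 1 rose (4.55%), with 5 and 5 when GC content was corrected. Psat1, of serine synthesis, stood at 3.93, 16.2 and 6.19 CPM in GHMT and 227, 215 and 169 CPM in E (log2 difference -4.43 ± 0.45 SE, adjusted p = 4.7e-06). Asns, asparagine synthetase, stood at 1.31, 18.8 and 6.87 CPM in GHMT and 117, 101.5 and 129.7 CPM in E (log2 difference -3.55 ± 0.60 SE, adjusted p = 3.1e-04). Folding genes of the endoplasmic reticulum split, with 6 higher (27.3%) and 9 lower (40.9%) of 22. The counts were 9 and 3 with GC content corrected. Canx, a membrane chaperone, stood at 8763, 6215 and 4621 CPM in GHMT and 711, 885 and 1348 CPM in E (log2 difference 2.74 ± 0.37 SE, adjusted p = 4.9e-05). P4hb, a disulfide isomerase that also serves collagen, stood at 31.5, 51.6 and 72.9 CPM in GHMT and 893, 830.1 and 523 CPM in E (log2 difference -3.83 ± 0.37 SE, adjusted p = 3.0e-06). Sterol and fatty acid synthesis genes were 5 higher (16.7%) and 16 lower (53.3%) of 30, or 8 and 5 with GC content corrected.

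The counts of regulator lists depended on the GC correction and on scaling. Among all tested genes, 19.8% rose and 32.9% fell. Each list below had more higher than lower genes with GC content corrected, and more lower than higher genes on total counts. Of 29 Hox genes 8 rose and 6 fell (18 and 1 with GC content corrected, 1 and 10 on total counts). Hoxc10, of the hind body, stood at 152, 22.9 and 94.2 CPM in GHMT and 10.2, 11.0 and 10.8 CPM in E (log2 difference 3.05 ± 0.58 SE, adjusted p = 9.9e-04). Of 19 imprinted genes 6 rose and 7 fell (9 and 1 with GC content corrected, 5 and 12 on total counts), and both named here rose. Peg10 stood at 1629, 1765 and 1245 CPM in GHMT and 33.5, 60.8 and 73.7 CPM in E (log2 difference 4.79 ± 0.40 SE, adjusted p = 7.0e-07). Mest stood at 378, 343 and 467 CPM in GHMT and 45.3, 38.2 and 26.0 CPM in E (log2 difference 3.44 ± 0.34 SE, adjusted p = 3.3e-06). Both of these are read from the father's copy. Chromatin regulators were 15 higher and 11 lower of 39 (17 and 5 with GC content corrected, 5 and 20 on total counts). Kdm6b, which removes a repressive histone mark, stood at 152, 398 and 315 CPM in GHMT and 15.2, 13.5 and 7.03 CPM in E (log2 difference 4.60 ± 0.68 SE, adjusted p = 1.1e-04). Hmga2, an architectural protein of embryonic cells, stood at 3.93, 26.1 and 2.06 CPM in GHMT and 141, 271 and 362 CPM in E (log2 difference -4.46 ± 0.72 SE, adjusted p = 2.1e-04). Of 23 immediate early genes 11 rose and 6 fell (15 and 1 with GC content corrected, 1 and 10 on total counts). Fos, the best known of them, stood at 239, 263 and 113 CPM in GHMT and 1.94, 2.87 and 2.32 CPM in E (log2 difference 6.43 ± 0.42 SE, adjusted p = 5.5e-08). In the Akt pathway list 8 rose and 5 fell of 24 (10 and 0 with GC content corrected, 1 and 12 on total counts). Survival genes were 6 higher and 5 lower of 25 (11 and 0 with GC content corrected, 2 and 11 on total counts). Bnip3l, a mitophagy receptor, stood at 1247, 425 and 380.1 CPM in GHMT and 25.1, 25.2 and 30.4 CPM in E (log2 difference 4.66 ± 0.46 SE, adjusted p = 3.4e-06).

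Markers of cell types other than fibroblasts and heart muscle were mostly low in both groups. Among all tested genes, 32.9% fell and 19.8% rose. Summed over the list, macrophage markers stood at 6.25 to 16.5 CPM in GHMT and 30.8 to 60.2 CPM in E. Of 20 tested, 7 fell (35%, near the share of all tested genes) and 0 rose. Their median at bounds was -0.33, against -0.34 for all tested genes. The defining genes Cd68, Adgre1 and C1qa had no GHMT read. This bounds Cd68 at 2.70-fold and Adgre1 at 1.53-fold lower at least. The call of Adgre1 was lost without GHMT replicate 2. Endothelial markers summed to 146 to 193 CPM in GHMT and 38.2 to 44.8 CPM in E (2 higher, 2 lower of 15). Nearly all of the GHMT sum was Flt1, a receptor of vascular growth factor, at 190.1, 134 and 135 CPM in GHMT and 23.3, 27.0 and 24.6 CPM in E (log2 difference 2.61 ± 0.28 SE, adjusted p = 7.8e-06), while Pecam1 and Cdh5 had 3 GHMT reads each. Mast cell markers summed to 65.5 to 162 CPM in GHMT and 9.94 to 15.7 CPM in E (1 higher, 2 lower of 7). Their sum in GHMT was carried by the chymase gene Mcpt4, at 65.5, 103 and 162 CPM in GHMT and 0.0669, 0.0676 and 0.153 CPM in E (log2 difference 10.12 ± 0.51 SE, adjusted p = 6.1e-09), and Kit, Cpa3 and Tpsb2 had no GHMT read. Neural markers summed to 6.19 to 34.4 CPM and 28.0 to 39.0 CPM (1 higher, 3 lower of 8), and fat cell markers to 3.93 to 11.7 CPM and 14.2 to 23.9 CPM (0 higher, 2 lower of 5). Epithelial and blood cell markers summed to at most 6.87 CPM in any library, and none passed. With GC content corrected, the counts were 1 and 3 for macrophage, 4 and 1 for endothelial, 1 and 1 for mast cell, 1 and 2 for neural and 1 and 1 for fat cell markers. The 6 defining fibroblast markers went in different directions: Col1a1, Col1a2 and Thy1 fell, Dcn and Lum rose, and Pdgfra did not pass. Dcn, a small proteoglycan, stood at 1868, 2010.3 and 1253 CPM in GHMT and 266, 325 and 192 CPM in E (log2 difference 2.71 ± 0.31 SE, adjusted p = 1.2e-05). Pdgfra, a receptor of platelet-derived growth factor, stood at 178, 157 and 125 CPM in GHMT and 186, 154 and 139.9 CPM in E, and the groups overlapped (adjusted p = 0.87). Under the GC correction Col1a1 and Pdgfra passed as higher (log2 differences 1.86 and 1.51), and on total counts Pdgfra passed as lower (-1.52). The fall of Col1a1 (log2 difference -0.96) did not pass without GHMT replicate 1 or without E replicate 2 (adjusted p of 0.12 and 0.080). All 6 defining heart markers (Myh6, Tnnt2, Actc1, Ttn, Ryr2 and Actn2) were above E in every GHMT library, Actn2 and Myh6 at low levels. In bulk libraries, fewer cells of a type and less RNA per cell cannot be told apart.

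The genes that differed most in size include several outside the lists. Among the 15 largest rises, Crh, the stress hormone corticotropin-releasing hormone, stood at 21.0, 42.2 and 84.5 CPM in GHMT and was without reads in E, a rise of at least 2004-fold. Gpr83, a G protein-coupled receptor, stood at 34.1, 64.1 and 45.4 CPM and was likewise without reads in E, a rise of at least 1947-fold. Crh differed between GHMT libraries more than Gpr83. Lrrc2, a leucine-rich repeat protein, stood at 374, 405 and 305 CPM in GHMT and 0.1004, 0.0676 and 0.183 CPM in E (log2 difference 11.52 ± 0.46 SE, adjusted p = 7.3e-10). Mal, a membrane raft protein, stood at 182, 209 and 299.7 CPM in GHMT and 0.167, 0.0676 and 0.0917 CPM in E (log2 difference 10.85 ± 0.56 SE, adjusted p = 7.5e-09). Ppp1r14c, an inhibitor of protein phosphatase 1, stood at 663, 788 and 735 CPM in GHMT and 0.234, 0.237 and 0.764 CPM in E (log2 difference 10.80 ± 0.61 SE, adjusted p = 1.5e-08). Ano4, of the anoctamin family, stood at 140.3, 147 and 62.5 CPM in GHMT and 0.0335, 0.0676 and 0 CPM in E (log2 difference 11.50 ± 0.70 SE, adjusted p = 2.8e-08). Among the 15 largest falls, 10 genes had no GHMT read. They included Vdr, the vitamin D receptor, at 42.2, 44.99 and 19.3 CPM in E (at least 48.9-fold lower), and Spag5, a spindle protein, at 40.6, 29.5 and 22.3 CPM (at least 42.5-fold lower). They also included Plod3, a collagen lysine hydroxylase, at 85.7, 26.3 and 13.2 CPM (at least 57.6-fold lower), and Gjb2, a connexin, at 20.9, 25.3 and 16.8 CPM (at least 28.9-fold lower). Their upper limit in GHMT, 3 reads pooled over the libraries, is 0.725 CPM and covers counting error only.

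**Figure D5:**
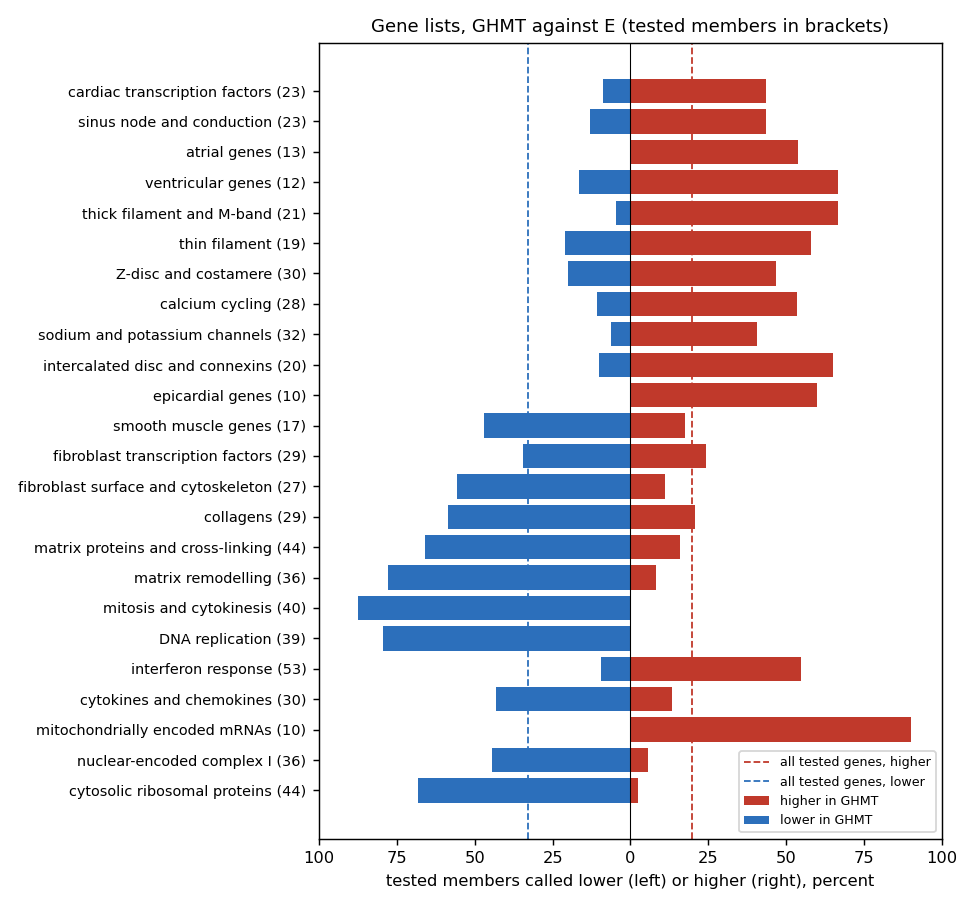
For 24 gene lists, bars give the percent of tested members called higher (red, right) or lower (blue, left) in GHMT, with the number tested in brackets; dashed lines mark the percent among all tested genes, 19.8% higher and 32.9% lower. Heart lists extend furthest to the right together with interferon and mitochondrially encoded genes, and cell division, matrix remodelling and ribosomal lists furthest to the left.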

How the data were processed

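The deposited count files hold, per library, counts of reads per Ensembl gene, with no further normalization. Per the submitters' processing notes, the authors used Bowtie2 2.0.6 with mm10, HTSeq and DESeq; the labels' protocols name TRIzol and a stranded TruSeq kit. Which strand was counted, and with which annotation, is not given in the sources used here. A deposited table of normalized signal equals the authors' counts over a library factor, as its values show; it served in 1 alternative. HTSeq's rows that name no gene stayed out of all totals, and 9.50% to 20.2% of uniquely aligned reads of the 6 libraries fell in none.

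Of 43629 gene identifiers, 42548 matched GENCODE M21 (GRCm38, the build of mm10). edgeR 4.0.16 in R 4.3.3 kept genes by filterByExpr (minimum count 10, minimum total 15) and scaled libraries by TMM. All 12 libraries, in 4 groups, entered these steps and 1 robust quasi-likelihood model. Log2 CPM values use a prior count of 2, and log2 differences use the default prior count of the fit. Simulated data with known changes were tested first. Gene lists have no test and are described by counts and medians beside those of all genes. Alternatives were other scalings and filters, DESeq2 1.42.0, limma 3.58.1 on log2 of the normalized values plus 1, glmTreat at 1.5-fold, 2 groups, a replicate block, a GC correction, thinning of every library to 612458 gene reads outside the mitochondrial genome, and each library left out. Pairs of replicates differed beyond counting error (chi-square per degree of freedom at least 49.3). Promoter sequences are RefSeq's (GRCm38.p6).

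The groups and lists were chosen with earlier results of these data known. Named genes are the forced ones, Myh6, per list the member of highest mean and up to 5 passing genes of largest change with groups apart, and the 15 largest changes per direction with a mean of at least 10 CPM; the text gives those of most interest. Some genes are not reported here. Chosen after their values were seen were Angpt1, Asns, Cacnb2, Cdkn1b, Cdkn1c, Col12a1, Col4a2, Col4a5, Cycs, Efemp1, Fn1, Foxc1, Fzd7, Gjc1, Hgf, Ifih1, Ifit1, Il33, Jag1, Lox, Lum, Mki67, Mme, Mmp2, Nkx2-5, Pde4b, Pkp2, Ptgs2, Rb1, Rgs4, Rps3, Rrm2, Rsad2, Shox2, Tbx15, Tbx3, Thy1, Timp1, Tnnc1, Tpm2 and Vcan. C1qa, Cdh5, Col1a1, Cpa3, Dcn, Kit, Myod1, Pdgfra, Pecam1 and Tpsb2 are defining markers of their cell types.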

Additional observations from a re-analysis of the deposited data

How the results depend on the processing

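The count of 2979 higher and 4948 lower genes moved by over 1.5 times under few alternatives. It became 1110 and 8111 on total counts, 4745 and 1837 with GC content corrected, 4166 and 1531 with a replicate block and the GC correction, and 2210 and 2673 when all libraries were thinned to 1 number of gene reads outside the mitochondrial genome. DESeq2 gave 3106 and 5520, and limma on the deposited normalized values 2104 and 6791. Calls that were higher made up 37.6% of the main calls, 72.1% with GC content corrected, 12.04% on total counts and 23.7% by limma. Leaving out single libraries gave 1658 to 3141 higher and 4215 to 5929 lower genes; without E replicate 1 there were 1658 higher, and without AGHMT replicate 3 there were 1951. The cause of these moves was not tested. The filter used all 12 libraries, so the tested members of a list depended on the other libraries too. With only the GHMT and E libraries, 12 thick filament genes were tested and 10 rose. Of the atrial list 8 were tested and 5 rose, of the sinus node list 17 and 6, and of the channel list 16 and 7. The median of all genes moved by -0.21 with DESeq2's size factors, -1.34 on total counts, -0.19 without mitochondrially encoded genes and 0.89 with GC content corrected.

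Same-numbered libraries of both groups did not deviate together (correlations of -0.04, -0.01 and -0.03), so the numbers were not taken to pair them; a replicate block gave 2519 higher and 4383 lower genes.

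Of 154 genes named above, 153 kept their direction and side of the threshold with DESeq2's size factors, 150 on total counts, 151 by DESeq2, and 141 with GC content corrected. Directions turned in these: Shox2 was 1.57 with GC content corrected, 1.59 with block and GC correction, and 0.0086 without GHMT replicate 1. Tbx3 was -0.17 with DESeq2's size factors, -1.42 on total counts, -0.20 without mitochondrially encoded genes, -0.098 without a filter, -0.041 in the fit of 2 groups, -0.23 by DESeq2, -0.17 by limma, and between -0.66 and -0.02 without GHMT replicate 1 or 3, AGHMT replicate 3, or E replicate 1 or 2. Kit was 0.32 by DESeq2. Col1a1 was 1.86 with GC content corrected and 1.88 with block and GC correction, and Pdgfra 1.51 and 1.46. Without single libraries, Shox2 ranged from -1.03 (E replicate 1) to 0.0086, Tbx3 from -0.66 to 0.10, and Pdgfra from -0.61 (AGHMT replicate 3) to 0.040 (without GHMT replicate 3). The calls of Acta1, Irx3, Cd68, Adgre1, Cdkn2d and Col4a2 were lost with GC content corrected, those of Acta1 and Adgre1 also without GHMT replicate 2 (adjusted p of 0.051 and 0.054), that of Mb by DESeq2 and that of B2m on total counts and without E replicate 1. The depth of GHMT sets an upper limit of 0.725 CPM for a gene without a read, so losses of genes low in E were not detectable.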

Other observations

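Classes of genes other than the lists differed in their split. Of tested protein-coding genes 2695 were higher and 4344 lower in GHMT, of long noncoding RNAs 189 and 194, and of pseudogenes 57 and 369. By exonic length, the shortest tertile of tested genes had 610 higher and 1879 lower, and the longest tertile 1386 and 1331. Genes with a mean above 5 on the log2 CPM scale were 1412 higher and 456 lower, and those with a mean of at most 2 were 738 and 3128. The part of depth and of library composition in these counts was not tested.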
